A study of Mus musculus with 8 samples.

Results

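The 4 wild type arrays, of 8 arrays in the series, were examined on their own for the genes that CD31-bearing cells of the mid-gestation mouse embryo express. Each array carried the RNA of 1 wild type embryo at stage E12.5 in the C57Bl/6J background, and no RNA was pooled between embryos. Their parents were heterozygous for the Gata2 +9.5 mutation, which targets an enhancer of Gata2, and the genotype labels give these 4 embryos as wild type. Wild type 1 and wild type 2 came from litter 1, and wild type 3 and wild type 4 from litter 2. The other 4 arrays held cells of Gata2 +9.5 mutant littermates and were not used here. The liver and brain had been removed, the remaining body was dissociated with collagenase, and the cells were caught with magnetic beads carrying an antibody to CD31 (PECAM-1). The cells are therefore an enriched mixture from the whole carcass, and an unenriched fraction was not analysed here. The genes were ranked by the mean, over the 4 arrays, of the log2 spot signal minus the array's 75th percentile, a quantity called the level below. A gene entered the ranking if its probe was well above background on all 4 arrays.

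CD31 is an adhesion protein at the contacts between endothelial cells, the lining cells of blood vessels, and platelets, their precursors and many leukocytes carry it too. At this stage the vessels of the embryo are growing and dividing into arteries, veins and the earliest lymphatics. The blood in them consists mainly of large primitive red cells made in the yolk sac, which use embryonic globins, together with the first red cells from the fetal liver, which use adult globins. Macrophages and megakaryocytes, the cells that shed platelets, also derive from the yolk sac and circulate or settle in the tissues by this time. In a bulk sample fewer cells of a type and less RNA per cell cannot be told apart.

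A level on these arrays is the signal of 1 probe, a synthetic sequence of 60 bases. The probes of the antigen used for the enrichment and of 3 globins are printed here because the endothelial and the red cell results rest on genes of this kind. The Pecam1 probe lies at chr11:106540864-106540923 on the minus strand, the Hbb-y probe at chr7:111000448-111000507 on the minus strand, the Hba-a1 probe at chr11:32183955-32184014 on the plus strand and the Hba-x probe at chr11:32177668-32177727 on the plus strand, all in mm9. Each of the 4 had 1 reading frame without a stop codon. The Hbb-y probe printed is the dimmer of its 2, which differed little. The globin genes are close relatives, but no pair of the 36 pairs among 9 globin probes shared a run of more than 8 bases. Probes were compared with each other and not with the transcripts of the other globins. Whether a globin probe also reads a relative's transcript was therefore not tested.
Pecam1: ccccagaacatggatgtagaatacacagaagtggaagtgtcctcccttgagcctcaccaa
Hbb-y: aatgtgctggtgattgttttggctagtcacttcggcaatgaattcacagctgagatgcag
Hba-a1: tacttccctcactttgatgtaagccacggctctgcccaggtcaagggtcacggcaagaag
Hba-x: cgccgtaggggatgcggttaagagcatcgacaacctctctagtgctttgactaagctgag

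Of 23839 named genes measured, 19367 were well above background on all 4 arrays and were ranked, which is 81.2% of them. A further 3412 were well above background on 1 to 3 arrays and 1060 on none. The filter is lenient, so detection alone separated cell types little, and the level carries most of what follows. The median level was -1.13 over all measured named genes, and the top 10% of them lay at 2.97 or higher. The ranking ended with 4930448F12Rik at -4.58. The highest gene that missed it with all 4 values measured was Stk3 at -1.22, and 203 genes missed it only because a flagged spot was left out, such as Ndufb8, a subunit of respiratory complex I, at 5.72. The levels of the ranked genes correlated between arrays at r = 0.920 to 0.973 across genes, which are not independent replicates. The median SD of a ranked gene over the 4 arrays was 0.54.

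The highest ranks were held by genes of protein synthesis, chromatin and the cytoskeleton, and by several genes whose rank came from a probe that its own gene's other probes did not match. Among the 20 highest genes were Actb, a cytoplasmic actin, at 8.97, Rn18s, the small ribosomal RNA, at 8.90, Rps14 and Rpl37a, ribosomal proteins, at 8.87 and 8.74, and Tpt1, a protein under translational control, at 8.72. Sparc, a secreted matrix protein that vessels make in quantity, stood at 8.72 on 1 probe and at 1.31 on its other. Hba-a2, an adult alpha globin, stood at 8.76. The H2A histones gave 5 of the 20, namely H2ac12, H2ac10, H2ac11, H2ac15 and H2aj, at 9.02, 8.81, 8.71, 8.69 and 8.69. The other probe of H2aj had -0.74 and that of H2ac15 had 6.29. Of 28 pairs among the 8 H2A probes within the 50 highest genes, 22 shared a run of 20 or more bases and the longest run was 42 bases. How far the probes of such pairs also read each other's transcripts was not tested. Ribosomal protein genes made up 18 of the 50 highest and 40 of the 100 highest genes, against 0.599% of all ranked genes. The 20 highest genes also held Exosc2 at rank 8 with 8.86 and Gm5921, a predicted gene, at rank 14 with 8.73. Of the 20 highest genes 11 were among the 20 highest on every array, and of the 100 highest 83 were among the 100 highest on every array.

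Other high ranks rested on 1 probe of several. Kctd14, a gene named for a channel tetramerization domain, ranked 1 with levels of 9.63, 9.09, 8.38 and 9.39 on wild type 1 to 4. Its other 2 probes had means of -3.34 and -3.45. Slc10a1, the bile acid transporter of hepatocytes, ranked 2 with a mean of 9.10, while its other probe had -4.66, a range of 13.76 on the log2 scale. Glrx2, Elk1, Ttc38 and Med16 held ranks 3, 9, 10 and 17, and their dimmest probes lay at -2.45, -2.56, -2.89 and 2.31. Over the 7055 measured genes with several probes the median range between probes was 2.05. A ranking by single bright probes is therefore a ranking of signals, and a level is set against the same gene's level on other arrays or against the whole distribution, not against the amount of another transcript. A median over the probes of each gene left 67 of the 100 highest genes in place.

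**Figure D1:**
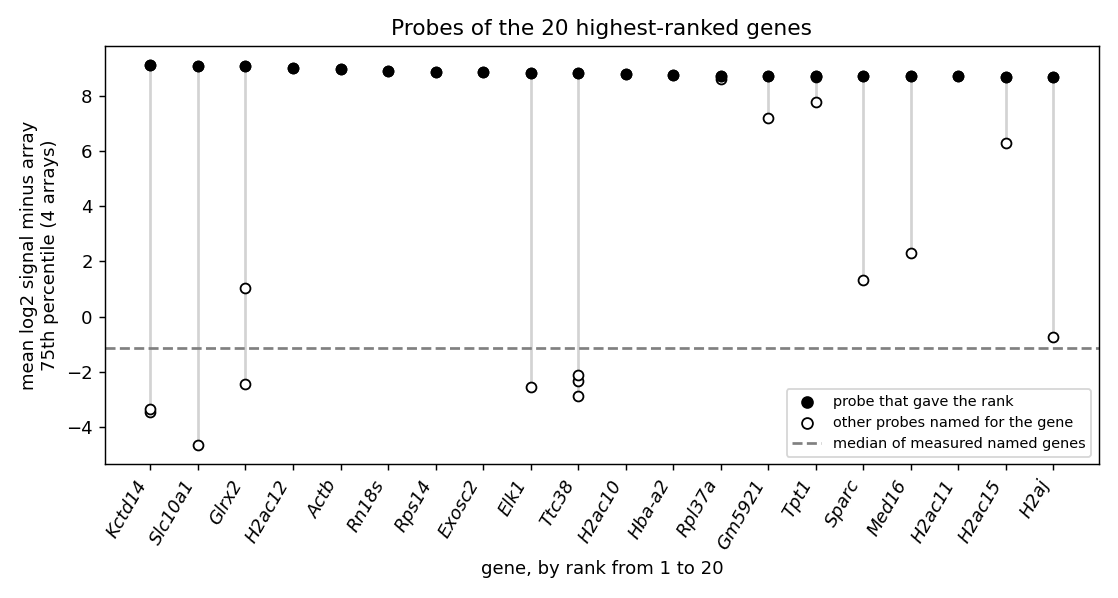
Mean level over the 4 wild type arrays (y axis, log2 signal minus the array's 75th percentile) of every probe named for the 20 highest-ranked genes (x axis). Filled points are the probes that gave the rank and open points the other probes, and those of Kctd14, Slc10a1, Glrx2, Elk1 and Ttc38 lie up to 13.76 below.

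The bright probes of such genes were searched for stretches of 14 bases that they share. Of the 1000 highest genes 479 had several probes and 139 of those had a range of at least 6 between them. Among the stretches that recurred were 2 that are shown here. The first was found on 7 probes of the array (0.0126% of all probes), with a median level of 8.72, and its reverse complement on 5 probes with a median of 0.20. The second was found on 12 probes (0.0216%) with a median of 7.74, and its reverse complement on 2 probes with a median of -3.60. The median of all 55681 probes was -2.13. Windows of 30 bases from 6 of these probes are printed to show how alike they are, with the shared 14 bases in capitals. As background, the first 3 windows read like the B1 family and the last 3 like the B2 family of short interspersed repeats, which many mouse transcripts carry.
Kctd14: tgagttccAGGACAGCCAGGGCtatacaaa
Glrx2: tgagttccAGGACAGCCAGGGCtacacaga
Elk1: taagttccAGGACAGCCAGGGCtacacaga
Pirb: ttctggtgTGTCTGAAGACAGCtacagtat
Synrg: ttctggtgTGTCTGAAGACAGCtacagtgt
Pbld1: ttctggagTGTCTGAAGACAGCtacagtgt
These probes lie at chr7:104606896-104606955 for Kctd14, chr1:145596708-145596767 for Glrx2, chrX:20510521-20510580 for Elk1, chr7:3663046-3663105 for Pirb, chr11:83855517-83855576 for Synrg and chr10:62540215-62540274 for Pbld1, all in mm9. Pirb, an inhibitory receptor of myeloid cells, ranked 40 with a level of 8.47 on this probe and had another probe at -3.56. Synrg, a protein of vesicle traffic, and Pbld1 ranked 53 and 54 at 8.29 and 8.28. How much of these signals came from the named transcripts was not tested. An alternative chosen after the data were seen left out 164 probes. These held such a stretch or a run of 20 bases found on probes of at least 10 other genes. Without them 88 of the 100 highest genes kept their place among the 100 highest. The bright probes of Slc10a1 and Ttc38 were searched too but were not among the 164, and these genes then ranked 1 and 7.

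Endothelial genes were high throughout. All 35 pan-endothelial genes were well above background on all 4 arrays, where 81.2% of measured named genes were. Of these 35 genes 22 (62.9%) were in the top 10% of levels, and their median level was 4.17. On wild type 1 to 4 the median of the list was 4.89, 4.08, 3.35 and 4.24, which put it at percentile 95.4, 95.5, 94.4 and 95.1 of the array's named genes. Wild type 3 was the lowest and wild type 1 the highest. The same order of these 2 arrays held for the median of the ribosomal list, at 8.07, 7.45, 6.87 and 7.82, so it was not particular to endothelial genes. Percentiles so near the top of their scale can move little.

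Egfl7, a secreted factor that endothelial cells place in the vessel wall, was the brightest of the list, with levels of 8.34, 7.57, 6.46 and 7.32 on wild type 1 to 4 and a mean of 7.42 ± 0.78 (SD, n = 4). Cd93, a lectin-like receptor of endothelium and some leukocytes, had 7.79, 7.07, 6.12 and 7.01, with a mean of 7.0 ± 0.68. Cdh5, the VE-cadherin of adherens junctions, had 5.56, 4.85, 3.35 and 4.24, with a mean of 4.50 ± 0.94. Wild type 3 was the lowest for each of these 3 genes and wild type 1 the highest. Pecam1, the antigen itself, had 3.75, 2.78, 2.18 and 3.17, with a mean of 2.97 ± 0.66, and ranked 2383. Its only probe fell just below the top 10%, which says nothing of the protein that the beads bound.

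**Figure D2:**
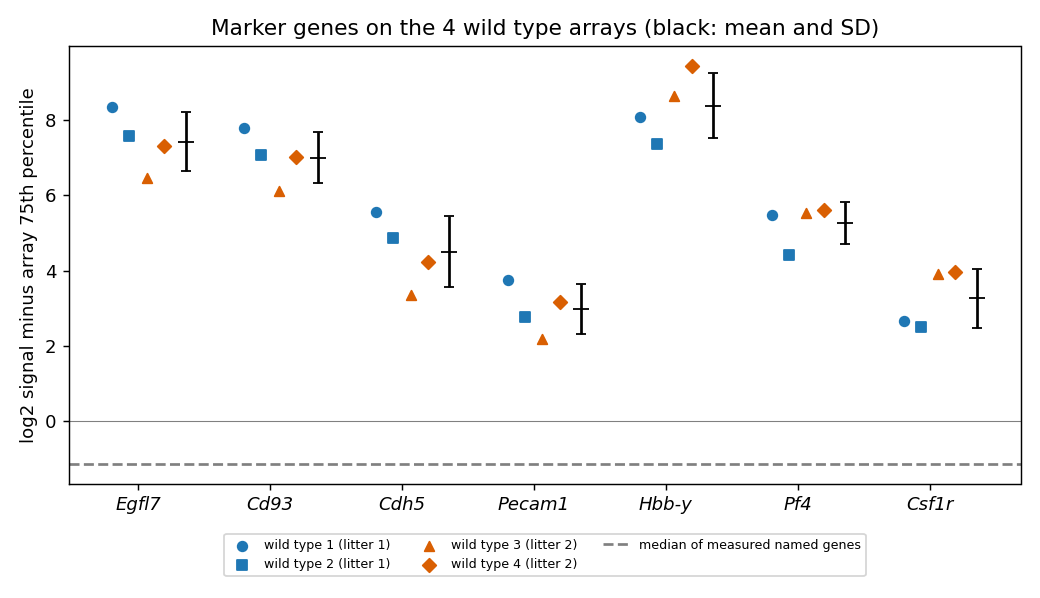
Level of 7 marker genes (y axis, log2 signal minus the array's 75th percentile) on each of the 4 wild type arrays, with the mean and SD in black. The 4 endothelial genes were lowest on wild type 3, whereas Hbb-y, Pf4 and Csf1r were higher on both arrays of litter 2 than on both of litter 1, Pf4 by a margin smaller than its SD.

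The other high members of the list included Cd34, a sialomucin of endothelium and blood progenitors, at 6.93 ± 0.68, Icam2, an adhesion molecule, at 6.78 ± 0.71, and Cldn5, a claudin of tight junctions, at 6.63 ± 0.53. The receptors for VEGF, Kdr and Flt1, stood at 5.16 ± 0.87 and 5.14 ± 0.73, and the angiopoietin receptor family members Tie1 and Tek at 4.33 ± 0.68 and 2.34 ± 0.61. Nos3, which makes nitric oxide in endothelium, and Vwf, the von Willebrand factor, had 5.01 ± 0.63 and 5.48 ± 0.48. The lowest 3 members were Adgrl4 at 0.13, Erg at 0.07 and Calcrl at -2.64. Erg encodes an ETS factor of endothelium, and its 2 probes lay at 0.07 and -1.88. Calcrl, the adrenomedullin receptor, had 1 probe, and its partner Ramp2 had a level of 6.42 ± 0.71. These members, like others below the 3 highest of a list, were chosen as examples after their values were seen.

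Arterial and venous genes were both present. All 17 arterial genes were well above background on all 4 arrays and 5 of them were in the top 10%, with a median of 2.12. The highest were Gja4, a gap junction connexin of arteries, at 3.83 ± 0.64, Unc5b, a guidance receptor, at 3.42 ± 0.65, and Notch4, an endothelial Notch receptor, at 3.36 ± 0.65. Efnb2, the ephrin that marks arterial endothelium, had 4.24, 3.31, 2.68 and 3.19. Dll4, a Notch ligand of arteries and tip cells, had 1.46, 0.41, 0.57 and 1.64, and Hey2, a Notch target in arteries, had a mean of -2.28. Of 7 venous genes all 7 passed the background filter and 4 were in the top 10%, with a median of 3.69. Nrp2, a receptor for VEGF-C and semaphorins, had 5.49 ± 0.70 on its brightest probe and -5.17 on its dimmest. Aplnr, the apelin receptor of veins, had 4.03 ± 0.91, Emcn, a sialomucin of veins and capillaries, 3.98 ± 0.63, and Ephb4, the receptor of ephrin-B2, 3.69 ± 0.64. Medians of lists with different probes do not rank arteries against veins.

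Genes of growing capillaries were also high. The 7 genes of tip cells and growing capillaries had a median of 3.08 with 4 in the top 10%, led by Mest at 6.83 ± 0.68, Esm1, a proteoglycan of tip cells, at 3.49 ± 0.73, and Kcne3, a potassium channel subunit, at 3.36 ± 0.75. Mest is an imprinted gene that mesoderm expresses widely, so it does not single out these cells. The 6 endocardial genes had a median of 0.24. Plxnd1, a semaphorin receptor that other endothelium shares, stood at 7.38 ± 0.72, whereas Nfatc1, the factor of the heart valves' lining, had 1.28 ± 0.45 and Cytl1 0.67 ± 0.51.

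The lymphatic programme gave mixed values. Of 7 lymphatic genes measured all 7 passed the background filter, 2 were in the top 10% and the median was -0.04. Tbx1, a factor of the pharyngeal region as well as of lymphatics, had 3.64 ± 0.64, Mmrn1, a multimerin of lymphatics, platelets and other endothelium, had 3.50 ± 0.66 on 1 probe and -5.09 on the other, and Pdpn, podoplanin, 1.44 ± 0.52. Prox1, the factor that sets lymphatic identity, had -1.31, -2.15, -2.31 and -1.92. Its mean lay below -1.13, the median of all named genes over the arrays. Against each array's own median it was just above on wild type 1 and below on the others. Flt4, the VEGF-C receptor, had a mean of -0.41 and Lyve1, a hyaluronan receptor of lymphatics and macrophages, -0.04.

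Of 27 endothelial transcription factors all 27 were well above background on all 4 arrays and 8 were in the top 10%, with a median of 2.25. Epas1, the hypoxia-inducible factor of endothelium, was highest with 5.91 ± 0.61, followed by Elk3, an ETS factor, with 5.14 ± 0.70 and Klf2, a factor that blood flow induces, with 4.70 ± 0.63. The SoxF factors Sox7, Sox18 and Sox17 had 2.86 ± 0.61, 2.76 ± 0.81 and 2.25 ± 0.90. Lmo2, Lyl1 and Tal1, which work in 1 complex with GATA factors in endothelium and blood, had 4.56 ± 0.70, 3.86 ± 0.49 and 2.51 ± 0.48. Gata2, the gene whose enhancer the study targets, had 2.00, 1.66, 0.89 and 1.42 on wild type 1 to 4. Wild type 3 was its lowest array, as for most endothelial genes and for the median of the ribosomal list.

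Signalling genes of vessels were read for 3 pathways. Of 16 VEGF and angiopoietin genes 15 were well above background on all 4 arrays and 6 were in the top 10%, all of them receptors, their phosphatase Ptprb or Vegfc. Ptprb had 4.61 ± 0.64 and Vegfc, a ligand for lymphatic and venous growth, 2.99 ± 0.72. Vegfa and Angpt1, ligands that neighbouring tissue supplies, had 0.43 ± 0.73 and -1.35 ± 0.54, and Angpt4 had -5.08 and passed the filter on 1 array. Of 16 Notch genes all 16 passed the filter but 1, Notch4, was in the top 10%, and the median was 0.43. Hey1, a direct Notch target, had 2.93 ± 0.64 and Jag1, a ligand, 1.12 ± 0.59, while Hes1 had -3.85 ± 1.10. Of 18 BMP and TGF-beta genes 5 were in the top 10%, led by Id3, a target of BMP signalling, at 4.97 ± 0.57, the receptor Tgfbr2 at 4.42 ± 0.55 and the coreceptor Eng at 4.17 ± 0.69.

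Genes for the vessel wall itself were among the highest. Of 17 basement membrane genes 13 were in the top 10%, with a median of 4.67. Sparc led on its brighter probe, while its other probe had 1.31. After Sparc these were Col18a1, a collagen that yields endostatin, at 6.10 ± 0.71, and Fn1, fibronectin, at 6.05 ± 0.57. The type IV collagens Col4a1 and Col4a2 had 5.96 ± 0.61 and 5.79 ± 0.57. Of 20 junction genes 11 were in the top 10%, with a median of 3.20, led by Cldn5, Rasip1, a regulator of vessel lumen formation, at 5.43 ± 0.64, and Cdh2, N-cadherin, at 4.71 ± 0.23. Of 16 genes for coagulation and fibrinolysis 5 were in the top 10%, namely Anxa2 at 6.86, Vwf at 5.48, F2r, a thrombin receptor, at 4.59, Gas6 at 4.21 and Tfpi, the inhibitor of tissue factor, at 3.05. F3, tissue factor itself, had -1.43 ± 0.47 and Adamts13, the protease of von Willebrand factor, -3.05 ± 0.45.

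**Figure D3:**
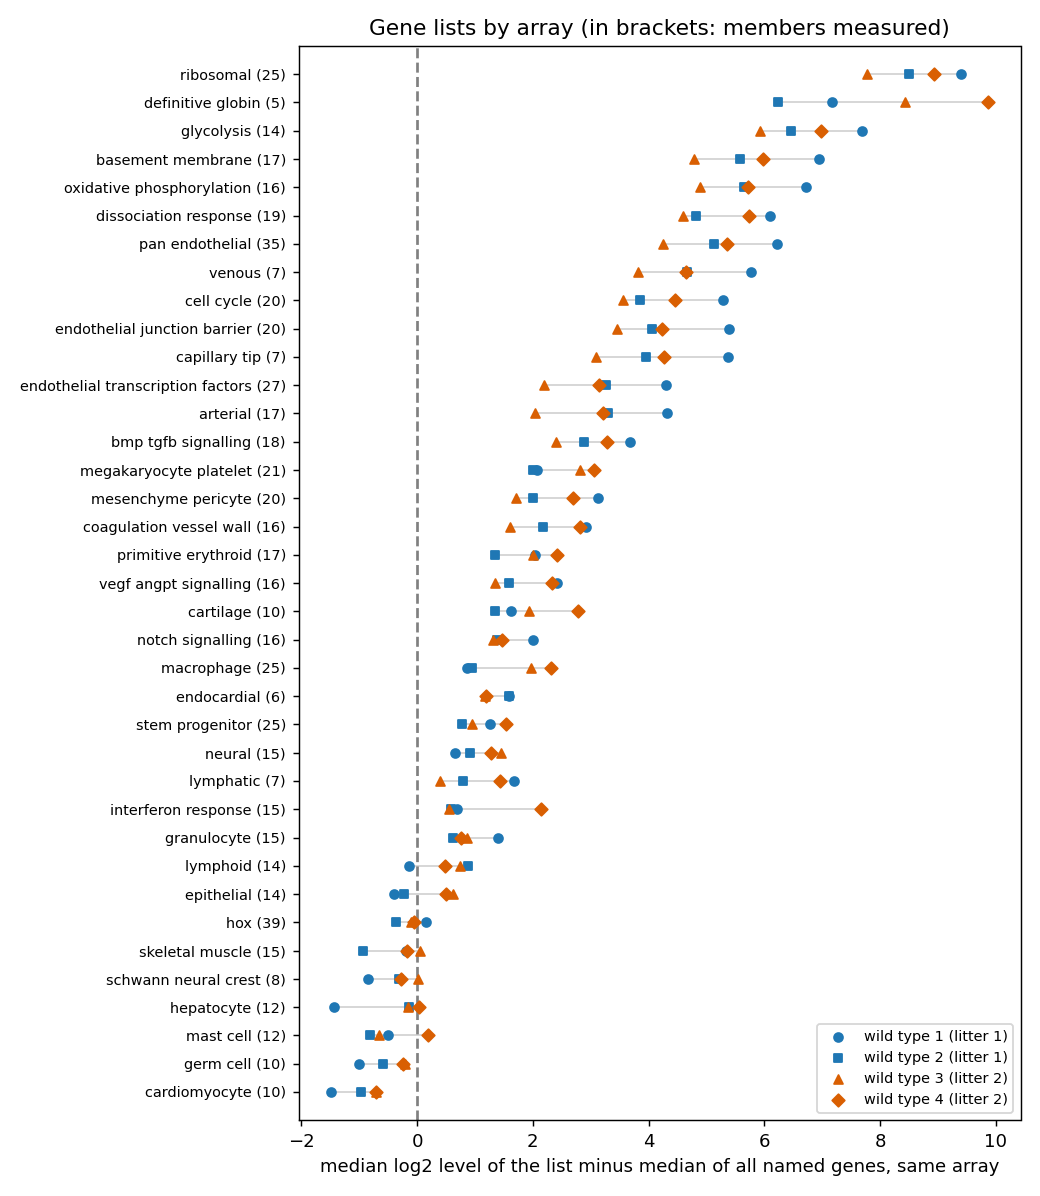
Median level of each gene list minus the median of all named genes on the same array (x axis, log2), for 37 lists (y axis) on the 4 wild type arrays. Ribosomal, globin, metabolic, basement membrane and endothelial lists lie to the right on every array, and cardiomyocyte and germ cell lists lie left of 0 on every array.

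Globin transcripts gave some of the brightest signals, and most of them differed between the arrays by more than 1 log2 unit. Hbb-y, the embryonic beta-like globin of primitive red cells, had 8.09, 7.37, 8.63 and 9.44, with a mean of 8.38 ± 0.87, and ranked 48. Its second probe gave 8.14, 7.48, 8.30 and 9.35, so the 2 probes differed little. Hba-x, the embryonic zeta globin, had 4.79, 4.10, 7.39 and 8.61, and Hbb-bh1, another embryonic beta-like globin, had 4.99, 3.89, 7.11 and 8.14. Both arrays of litter 2 were higher than both of litter 1 for each of the 3 genes, and the groups did not overlap. Among the adult globins Hba-a1 had 7.77, 6.96, 8.28 and 9.22 and Hbb-bt 5.83, 5.18, 7.54 and 8.75, again higher in litter 2 without overlap. Hba-a2 had 9.05, 8.49, 8.24 and 9.28, and the litters overlapped. Of the 5 adult globins measured these 3 were in the top 10%. Hbb-bs, an adult beta globin below it with a mean of 2.01, had 0.65, 0.93, 2.11 and 4.34. The globins were thus not at the same distance from each other on every array.

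The erythroid list holds the 3 embryonic globins and 14 other genes of red cells. Of its 17 genes 16 were well above background on all 4 arrays and 4 were in the top 10%, with a median of 0.96. Alas2, the first enzyme of heme synthesis in red cells, had 0.95, 0.43, 3.47 and 4.79. Slc4a1, the anion exchanger of the red cell membrane, had 1.23, 0.86, 2.94 and 4.20, and Ahsp, a chaperone of alpha globin, 0.43, 0.22, 1.85 and 3.00. All 3 were higher in litter 2 without overlap. Klf1, a master factor of red cells, had -2.36, 0.03, -0.24 and -1.14, and the litters overlapped. Hemgn, in the top 10% at 2.98, was read by 1 probe that is among the 164 with shared runs. It was lower on wild type 3 than on any other array, unlike the 3 embryonic globins. The adult globin Hba-a2 was also lowest on wild type 3.

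Megakaryocyte and platelet genes were all detected. All 21 were well above background on all 4 arrays and 5 were in the top 10%, with a median of 1.24. Pf4, the platelet chemokine, had 5.47, 4.42, 5.52 and 5.61, with a mean of 5.26 ± 0.56, and wild type 2 stood below the other 3 arrays. Treml1, a receptor of platelet granules, had 3.99, 3.04, 3.89 and 4.01, with the same array low. Rasgrp2, an activator of platelet integrins that endothelium also expresses, had 3.67 ± 0.56. The integrin subunits Itgb3 and Itga2b had 3.13 ± 0.55 and 1.78 ± 0.58, and the von Willebrand factor receptor subunits Gp9, Gp5, Gp1ba and Gp1bb had 2.37, 0.33, 0.30 and -0.37.

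Macrophage genes were moderate and uneven. Of 25 macrophage genes 22 were well above background on all 4 arrays and 4 were in the top 10%, with a median of 0.21. The highest were Stab1, a scavenger receptor that endothelium shares, at 4.49 ± 0.58, Itgam at 4.18 ± 0.52 and Ctsb, a lysosomal protease of most cells, at 3.94 ± 0.40. Itgam, an integrin subunit of myeloid cells, had this level on 1 probe that is among the 164 with shared runs, while its other 2 probes had -2.20 and -2.35. Csf1r, the receptor that macrophages need to grow, had 2.65, 2.50, 3.91 and 3.97 on its brightest probe. Its other 2 probes had means of -0.44 and -1.34, and each was higher on both arrays of litter 2 than on both of litter 1. Cx3cr1, a chemokine receptor, had 0.00, 0.38, 1.64 and 1.87, Mrc1, the mannose receptor, -0.72, -0.51, 1.11 and 0.97, and C1qa, a subunit of complement C1q, -1.17, -0.92, 0.99 and 1.20. All 3 were higher in litter 2 without overlap. Timd4 passed the filter on 2 arrays at -5.72, and Spi1 and Cd163 passed it on 3 arrays.

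Granulocyte, mast cell and lymphoid genes were seldom in the top 10%. Of 15 granulocyte genes all 15 passed the filter but 1 was in the top 10%, Csf3r, the receptor of granulocyte colony-stimulating factor, at 5.46 ± 0.58 on its only probe. Mpo, myeloperoxidase, had 2.55 ± 0.36 and S100a9, a calprotectin subunit, 1.87 ± 0.65, and the median of the list was -0.28. Of 12 mast cell genes none was in the top 10%. Srgn, a granule proteoglycan of many blood cells and endothelium, had 2.91 ± 0.41, Kit 1.96 ± 0.41 and Hdc, which makes histamine, 1.72 ± 0.68, while Ms4a2, a subunit of the IgE receptor, was well above background on no array. Of 14 lymphoid genes measured none was in the top 10%. Lck had 2.40 ± 0.65, Thy1 1.26 ± 0.51 and Cd3e 0.96 ± 0.60, and Rag1 and Rag2 passed the filter on 3 arrays only.

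Of 25 genes of blood stem and progenitor cells 24 passed the filter on all 4 arrays and 5 were in the top 10%, with a median of -0.11. The 5 were Cd34, Cbfb, a partner of RUNX factors in most cells, at 4.68 ± 0.52, Lmo2, Lyl1 and Zfpm1, a GATA cofactor, at 3.23 ± 0.58. Endothelium also expresses Cd34, Lmo2, Lyl1 and Tal1, so these members did not separate the lineages. Runx1, the factor required for blood stem cell emergence, had -0.75, -1.15, 0.10 and 0.31, higher in litter 2 without overlap. Myb, Flt3, Hlf and Mecom had means of -1.29, -1.74, -2.31 and -2.37, below the median of all named genes.

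Markers of cells other than endothelium and blood were also read. Of 20 mesenchyme and pericyte genes all 20 passed the filter and 6 were in the top 10%, with a median of 1.16. Col1a2 and Col1a1, chains of type I collagen, had 6.72 ± 0.76 and 5.0 ± 0.76, and Myl9, a smooth muscle myosin light chain, 5.29 ± 0.49. Pdgfra, Pdgfrb and Rgs5 had 0.64 ± 0.81, 0.52 ± 0.39 and 0.61 ± 0.22, each below the median of the list, so they do not stand for its other members. Of 10 cartilage genes all 10 passed the filter and 1 was in the top 10%, Col2a1, type II collagen, with 3.99, 3.03, 4.56 and 5.76. Matn4 had 2.59 ± 0.64 and Col9a2 2.21 ± 1.25. Of the 10 cartilage genes 9, all but Hapln1, were higher in litter 2 without overlap, where 16.5% of all measured named genes were. With the array median as the scale 3 of 10 were, where 8.71% of all were, and 3 of 10 with the authors' deposited table, where 8.14% of all were.

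Few neural, muscle, epithelial and liver genes were in the top 10%. The 15 neural genes had a median of 0.08, above that of all named genes on each array, and 1 was in the top 10%, Snap25, whose only probe is among the 164 with shared runs, at 3.62. Gap43 and Stmn2, growth-associated genes of neurons, had 2.64 ± 0.57 and 1.09 ± 0.48. The 8 genes of Schwann cells and neural crest had a median of -1.76, with Fabp7 at 1.47 and Ednrb at 0.69. Among 15 skeletal muscle genes none was in the top 10%, Tnnt1, Myl4 and Actc1 led with 2.27, 1.31 and 0.38, and Myf5 and Mylpf were well above background on no array. The 10 cardiomyocyte genes had a median of -2.15, with Tnni3, Myh6 and Tnnt2 at 0.34, 0.11 and -0.60. Of 14 epithelial genes none was in the top 10%, and Krt18, Trp63 and Krt5 had 2.49, 2.03 and 1.39, although the 4 probes of Trp63 reached down to -5.15. Of 12 hepatocyte genes 1 was in the top 10%, Trf, transferrin, at 4.41, followed by Apoa2 at 1.41 and Ttr at 0.59, while Alb, albumin, had -2.80 ± 0.24. Of 10 germ cell genes none was in the top 10%. Prdm1, Nanos3 and Nanog had 0.11, -0.04 and -0.48, and Dazl was well above background on no array.

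Programmes of growth and metabolism were high. All 25 ribosomal and elongation genes and all 16 genes of oxidative phosphorylation were in the top 10%, with medians of 7.62 and 4.66, led by Rps14, Rplp0 at 8.66 and Rpl10 at 8.52, and by Cox4i1 at 6.95, Atp5b at 6.88 and Cox5a at 5.92. Of 14 glycolysis genes 11 were in the top 10%, with a median of 5.84, led by Gapdh at 7.94, Ldha at 7.30 and Aldoa at 7.23. Slc2a1, the glucose transporter of endothelium and red cells, had 5.87 ± 0.83, whereas Hk2 had -0.61 ± 0.56. Of 20 cell cycle genes 12 were in the top 10%, with a median of 3.19, led by the replication helicase subunit Mcm6 at 6.26, Birc5 at 5.38 and Pcna, the replication clamp, at 4.88. Aurkb, a mitotic kinase, was well above background on no array, with 1 probe at -6.96.

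Genes that dissociation at warm temperature is known to induce were high on all arrays. Of 19 measured 18 passed the filter and 12 were in the top 10%, with a median of 4.06. The chaperones Hsp90ab1 and Hspa8 had 7.92 ± 0.56 and 7.22 ± 0.53, and the immediate early genes Jun, Nr4a1, Egr1 and Fos had 7.01 ± 0.41, 6.80 ± 0.36, 4.57 ± 0.68 and 4.06 ± 0.50. Of 15 interferon response genes 14 passed the filter and 2 were in the top 10%, with a median of -0.65. Irf1, an interferon-regulated factor, had 4.22 ± 0.71, Bst2 3.24 ± 0.67 and Ifitm2 2.93 ± 0.57. Undissociated tissue was not analysed here, so the part that dissociation played in the levels of its response genes was not tested.

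The Hox genes, which set position along the body, were near the median of all genes. Of 39 Hox genes 36 were well above background on all 4 arrays, none was in the top 10%, and the median was -1.07. The 4 clusters had medians of -1.0 for the 11 Hoxa genes, -1.13 for the 10 Hoxb genes, -0.95 for the 9 Hoxc genes and -1.27 for the 9 Hoxd genes. Hoxc10 led with 0.37, 2.42, 2.06 and 0.01, followed by Hoxb4 and Hoxa3 at 0.64 each, and Hoxb1 was well above background on no array. Hoxc10 was high on wild type 2 and wild type 3 and low on the other 2 arrays, a split that did not follow the litters.

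The same split ran through the sex chromosome genes. Xist, the noncoding RNA that coats the inactive X chromosome, had -6.74, -0.27, 0.25 and -6.92 on wild type 1 to 4. The Y-linked genes Eif2s3y and Ddx3y had 1.45, -7.10, -4.91 and 1.21, and 1.42, -7.00, -5.21 and 1.28. Wild type 1 and wild type 4 thus carried the Y-linked transcripts and wild type 2 and wild type 3 carried Xist, 1 of each kind in each litter. Uty had -3.99, -2.43, -2.60 and -3.92 and Kdm5d -4.14, -7.02, -3.91 and -4.28, so that Uty separated the same pairs in the opposite direction and Kdm5d did not separate them. The closest pairs of arrays were also wild type 1 with wild type 4, at r = 0.973, and wild type 2 with wild type 3, at r = 0.969, against 0.920 to 0.948 for the other 4 pairs. Embryo sex and whatever else these pairs share cannot be told apart with 1 embryo of each kind in a litter.

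Litter was the only grouping that the labels gave within the wild type arrays. The sample titles also carry a number that divides the arrays exactly as litter does. Litter and whatever that number records cannot be told apart. Its comparison asks how much the baseline of the enriched cells varied between 2 sets of littermates. With 2 arrays a litter an exact permutation test cannot go below p = 0.333, so single genes were tested with limma across 41040 probes or genes well above background on at least 2 arrays. At a Benjamini-Hochberg adjusted p under 0.05, limma called 30 (0.0731%), 25 of them higher in litter 2 (0.0609%) and 5 lower (0.0122%), and 1831 had an unadjusted p under 0.05. limma shrank all spreads to 1 value, with a standard error of 0.77 for every gene, so the calls follow the size of the difference alone. The count was 10 with the array median as the scale, with 5 higher and 5 lower, 5 with the authors' deposited table, and 0 after quantile normalization, with and without another background correction, where 1503 and 1604 had an unadjusted p under 0.05. It was 226 without wild type 2, 2 without wild type 3 and 1 without wild type 4. It was also 0 when the pairing of wild type 1 with 4 and of 2 with 3 by the sex chromosome genes was a second term of the limma fit, with a lowest adjusted p of 0.207 and 8307 features at an unadjusted p under 0.05. That fit had 1 residual degree of freedom and standard errors of 0.24 to 1.88, and it was chosen after the data were seen.

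Few calls rested on probes well above background on all 4 arrays. Of the 30 called, 8 were well above background on all 4 arrays and 18 were higher in litter 2 from a level not well above background on either array of litter 1. Hba-x was higher in litter 2 by 3.55 ± 0.77 (SE), Alas2 by 3.44 ± 0.77 and Hbb-bh1 by 3.18 ± 0.77, with limma adjusted p of 0.0139, 0.0205 and 0.0492, each in both arrays of litter 2. Paqr6, a membrane progestin receptor, had -1.55, -2.30, 1.06 and 2.12 (adjusted p = 0.0162 with limma), and Otop1, a proton channel, had -2.78, -3.44, -0.52 and 0.68 (adjusted p = 0.0492 with limma). Afp, alpha-fetoprotein of the fetal liver and yolk sac, was called higher with -6.61, -1.19, 0.43 and 2.17 and a limma adjusted p of 5.47e-07. Its probe was well above background on 1 of the 2 arrays of litter 1, so its difference has no settled size. Csn1s2b, Prl2a1, Gm6213, Olfr736, Olfr1066 and 1700019A02Rik were called higher from litter 1 means between -5.82 and -6.92, none of them well above background there. Gm13698 was called lower by 3.20 and was well above background on all 4 arrays. Stk3 and Pou6f1 were called lower too, but each was well above background on 1 of the 2 arrays of litter 2, so no size is given. Stk3, a kinase of the Hippo pathway, had 0.97, -0.07, -6.18 and 0.39, and wild type 3 alone lay apart.

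**Figure D4:**
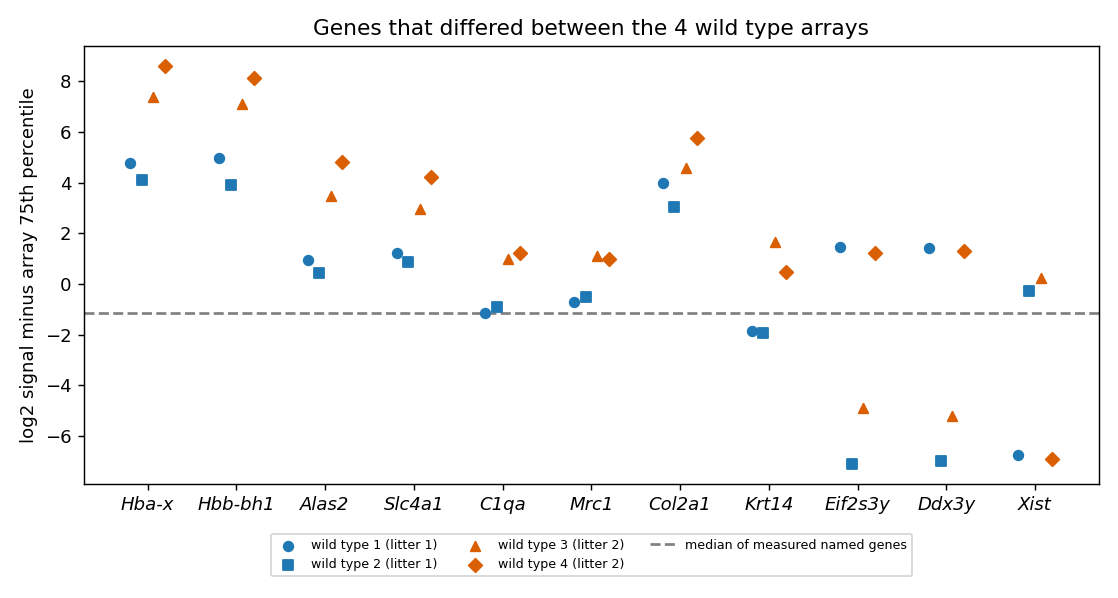
Levels of 11 genes (y axis, log2 signal minus the array's 75th percentile) on the 4 wild type arrays, with litter 1 in blue and litter 2 in orange. The globins, Alas2, Slc4a1, C1qa, Mrc1, Col2a1 and Krt14 were higher on both arrays of litter 2, while Eif2s3y, Ddx3y and Xist separated wild type 1 and 4 from wild type 2 and 3.

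The 10 ranked genes of highest SD over the arrays followed several patterns. Hba-x, Alas2, Hbb-bh1, Paqr6, Otop1 and Hba-ps4, an alpha globin pseudogene, were higher on both arrays of litter 2. Fbp1, an enzyme of gluconeogenesis, had the highest SD of all ranked genes, 2.23, and was high on wild type 1 alone, at 1.12 against -3.99, -2.86 and -2.71. Tac2, a tachykinin precursor, was high on wild type 1 and wild type 4 with 1.79 and 1.03, and had -1.64 and -2.29 on the other 2 arrays. Pop4, a subunit of ribonuclease P, was low on wild type 4 alone at -0.88, and Gm13698 was lower in litter 2.

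Counts of list members whose litters did not overlap extended the comparison to many genes. Over all measured named genes 16.5% were higher in litter 2 without overlap and 9.33% lower. Of the 17 erythroid genes 13 (76.5%) were higher and 1, Tfrc, lower, of the 25 macrophage genes 15 (60%) higher and 1 lower, and of the 21 platelet genes 10 (47.6%) higher and 1, Clec1b, lower. Without overlap 9 of 10 cartilage genes (90%), 6 of 8 Schwann and neural crest genes (75%), 8 of 15 neural genes (53.3%), 6 of 12 hepatocyte genes (50%) and 6 of 14 epithelial genes (42.9%) were higher in litter 2 too. Of the 35 pan-endothelial genes 21 (60%) were lower and none higher, and of the 17 arterial genes 8 (47.1%) lower and none higher. The median difference, litter 2 minus litter 1, was 1.30 over the erythroid genes, 1.31 over the macrophage genes, 0.45 over the platelet genes and -0.86 over the pan-endothelial genes, beside -0.0082 over all measured named genes. With the array median as the scale, 8.71% of genes were higher and 10.8% lower without overlap. The platelet count fell to 1 of 21, while 8 erythroid and 14 macrophage genes were higher and 15 endothelial genes lower. On that scale 1 of the Schwann and neural crest genes, 2 of the neural, 6 of the hepatocyte and 4 of the epithelial genes were higher. After quantile normalization 15.7% of all genes were higher and 18.4% lower without overlap. There 14 of 21 platelet, 11 of 17 erythroid and 18 of 25 macrophage genes were higher. Of the 35 pan-endothelial genes 24 were then lower and 2 higher.

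Brightness and array moved with these differences. The 75th percentile of the signal was 996, 1430, 2481 and 1287 on wild type 1 to 4, the spread between quartiles 4.20, 3.69, 3.42 and 3.56 on the log2 scale, and 77.1% to 92.0% of the spots were well above background. The median litter difference was -0.47 over the named genes in the top 10% and 0.34 over those below the median level. The ribosomal genes, which all cell types use, had a median difference of -0.42, and all 25 were highest on wild type 1, as were all 35 pan-endothelial genes, where 40.6% of measured named genes were. The median of a list, set against the array median, was also compared between litters, which is not the median of its members' differences. On this measure the difference of the pan-endothelial list, litter 2 minus litter 1, was -0.88. It was -0.19 after quantile normalization, -0.33 without wild type 1, -0.34 without wild type 3 and -1.43 without wild type 2 or wild type 4. The difference of the ribosomal list was -0.60, and 0.05 after quantile normalization. The macrophage list was higher in litter 2 by 1.24, and the erythroid list by 0.52, which was 0.18 without wild type 2, 0.31 without wild type 4 and 0.87 without wild type 1. The part of array brightness in the endothelial difference was not tested.

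**Figure D5:**
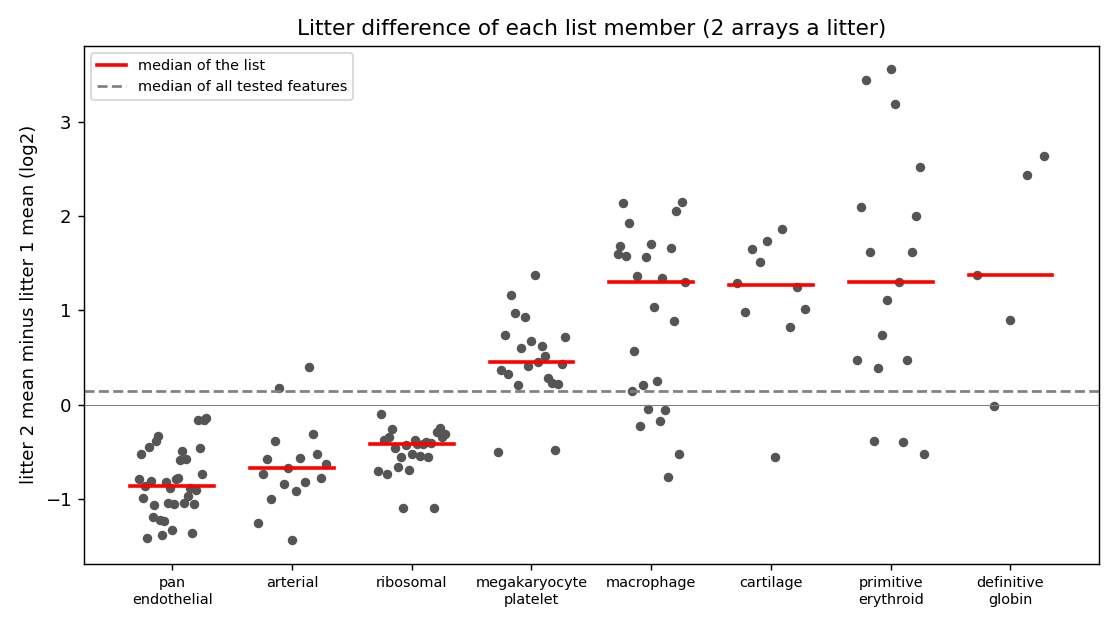
Litter 2 mean minus litter 1 mean (y axis, log2, 2 arrays a litter) of each measured member of 8 gene lists, with the median of each list in red and that of all tested features as a dashed line. Endothelial, arterial and ribosomal genes lie mostly below 0, and macrophage, cartilage, erythroid and globin genes mostly above 0.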

How the data were processed

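RNA of bead-enriched CD31+ cells of 1 embryo an array was hybridised to 1-colour Agilent arrays. The deposited scanner files give spot intensity from Agilent Feature Extraction 10.7.3.1 with mm9 positions, per the file headers. Spatial and multiplicative trends had been removed and low signals could be replaced by surrogate values, per the file headers, so low levels are bounds. The authors' deposited table gives log2 values, and the submitters' processing notes name limma without a version. Its columns equalled the log2 signal minus each array's own median, and their medians were -0.0879 to -0.0628. It served as an alternative, and its 4 columns of mutant samples were not used.

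From each of 59305 non-control spots the log2 processed intensity was taken, and the array's 75th percentile subtracted. Between 140 and 521 outlier-flagged spots an array were dropped, and repeated spots averaged. Of 55681 probes, 26863 were named through a RefSeq accession, 4375 through a symbol or synonym, 1676 kept the file's name and 22767 had none. The brightest probe stood for a gene. Over 399 repeated probes the median SD within an array was 0.103 to 0.160, and the number of arrays limits the precision.

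Litters were compared by a two-sided limma fit (version 3.58.1, R 4.3.3) with Benjamini-Hochberg adjustment. The fit was tested on simulated data for this comparison over 41040 features. Of features changed by 1, 2 and 4 log2 units it recovered 0 of 67, 4 of 67 and 56 of 66. It called 2 unchanged features. The simulated noise was independent between features, had the single spread of the fit and held no shift shared by an array. The simulation therefore cannot show how many calls on the real arrays are false. Lists were described by counts and medians, without a test. The members and lists were chosen with earlier results of these data known. Of 563 list genes 559 were measured. The text names 7 markers, the 20 highest genes, of each list the 3 highest members and up to 4 well above background on none, the 10 most variable genes and up to 10 litter calls in each direction. Others were chosen after their values were seen. Scaling, background correction, probe rule, filter, source of values and arrays were varied, and 3 of the alternatives (without shared-stretch probes, without wild type 2 and 3, with the split by sex chromosome genes as a second term) were added after the data were seen.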

Additional observations from a re-analysis of the deposited data

Results flagged for a closer look

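Among 177 genes and lists checked for a single array far from the other 3, 7 were set apart. That share is no larger than the about 1 in 20 that chance alone sets apart. The measure is the gap to the nearest array as a share of the whole range. Pf4 (0.881) and Treml1 (0.870), both of platelets, were low on wild type 2, at 4.42 and 3.04, against at least 5.47 and 3.89 on the other arrays. S100a9 (0.857), of granulocytes, was low on the same array at 0.91. Bst2 (0.840), an interferon-induced membrane protein, was high on wild type 4 at 4.23, and the interferon response list (0.915) was high on that array, at 2.14 above the median of all genes against at most 0.68 elsewhere. Of its 15 genes 12 were highest on wild type 4, where 22.9% of all measured named genes were. The hepatocyte list (0.869) was low on wild type 1, at -1.43 against -0.16 on the next array, in the list that holds Afp. The sex chromosome list (0.892) was low on wild type 2, at -5.96 against -3.01. This list joins Xist with Y-linked genes, of which Eif2s3y and Ddx3y ran opposite to Xist. No cause of these values was tested.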

How the results depend on the processing

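The number of genes ranked ran from 17886 to 23839, and that of list genes that met the filter of the setting from 509 to 559. The upper end of each came with no filter on background, where every measured gene counts. The endothelial, erythroid, macrophage and platelet differences between litters kept their direction under the alternatives run. The number of litter calls did not hold: it was 30 as reported, 10 with the array median as the scale, 0 after quantile normalization and 0 with normexp, 5 with the deposited table, 18 with no filter on background, 7 with a filter at 3 arrays and 0 with the split by sex chromosome genes as a second term. Leaving out 1 array gave 1 to 226 calls. The macrophage difference between litters was 1.24, and 1.51 with quantile normalization, 1.54 with normexp and 0.81 with the median over probes. The platelet difference was 0.89, and 1.30, 1.43 and 0.33 under the same settings. These are differences of list medians set against the array median, not the medians of member differences given earlier. Without 1 array the 4 list differences ran from -1.43 to -0.33 for endothelial, 0.18 to 0.87 for erythroid, 1.07 to 1.39 for macrophage and 0.77 to 1.01 for platelet genes. Among levels of single genes and lists under these alternatives 64 moved by more than the spread between arrays and 2235 did not, and 42 of the 64 moved with the median over probes. The causes were not tested. No paired analysis was possible because the genotypes are not compared and each replicate number lies in 1 litter. Detection at 81.2% of genes limits what presence of a signal can show, and 2 arrays a litter limit the litter test.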
